A study of Mus musculus with 10 samples.

Results

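The genes described here mark the projection neurons of the direct and the indirect pathway of the striatum in the nucleus accumbens (NAc) of inbred mouse strains B6 and D2. They were chosen by name, and their Ensembl identifiers were looked up in the deposited gene counts, where all 9 were present among 29883 genes. Of these, 4 stand for the indirect pathway (Adora2a, Gpr6, Gpr52 and Sp9) and 5 for the direct pathway (Eya1, Isl1, Sfxn1, Ebf1 and Slc35d3). The question was whether these sets differed between the strains, and whether they differed alike.

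The NAc of ethanol-naive male mice was sequenced as poly-A RNA, with 1 library per mouse. C57BL/6J (B6) and DBA/2J (D2) were represented by 5 mice each, sacrificed at 9 weeks of age and given no treatment. Males alone were used, and each library holds the RNA of every cell type in the dissected tissue. Both strains were aligned to the GRCm39 genome, which is that of B6, so that reads with many D2 alleles may have been lost, and the part of this in the D2 values was not tested.

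Most neurons of the NAc are GABAergic spiny projection neurons that fall into a pair of classes. Direct pathway neurons carry the dopamine D1 receptor, which raises cAMP, together with substance P and dynorphin. Indirect pathway neurons carry the dopamine D2 receptor, which lowers cAMP, together with enkephalin and a group of receptors that raise cAMP, among them an adenosine receptor. The balance of both classes shapes how reward and drugs such as ethanol guide action.

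Between 96977262 and 116776714 reads per library were counted on genes, and each member had at least 646 counts in every mouse. Genes of both kinds of projection neuron were abundant, with Ppp1r1b (DARPP-32) at 1212 ± 143 CPM (SD, n = 5) in B6, so that defining genes of the labelled tissue were present. CPM are the TMM-normalized counts of a gene per 1000000 counts of its library. B6 replicates 3 and 5 stood apart. Markers of cortical projection neurons, summed over 6 genes, were highest in these libraries (929 and 941 CPM), against 74.2 to 159 in the other B6 mice and 213 to 579 in D2. Markers of cholinergic interneurons, summed over 7 genes, were lowest in the same libraries (78.6 and 81.7 CPM), against 153 to 178 in the other B6 mice and 131 to 208 in D2. The labels give no batch. Results on the 9 genes and the lists that moved with these libraries are given with and without them, a comparison added after the data had been seen. The closest pair of libraries of a strain was this one, with a mean chi-square of 4.89 per gene, against 17.5 to 119 in the other pairs. Sampling noise gives a value near 1, but 4.89 alone cannot show that these libraries came from different mice. The labels name a different mouse for each, so they were kept as separate mice.

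In edgeR's quasi-likelihood test over all genes with Benjamini-Hochberg adjustment, 18.3% of genes passed an adjusted p of 0.05, with 9.83% lower and 8.5% higher in D2. Of the 4 indirect pathway genes, Adora2a, Gpr6 and Gpr52 were lower in D2 and none was higher, with a median log2 fold change of −0.41. Of the 5 direct pathway genes, Eya1 was higher in D2 and none was lower, with a median log2 fold change of 0.15. The median over all genes was 0.0036. In 16% of all genes every D2 mouse lay below or above every B6 mouse, and this held for 3 of the 4 indirect and 0 of the 5 direct genes. In these bulk samples, fewer cells of a type and less RNA per cell cannot be told apart.

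**Figure D1:**
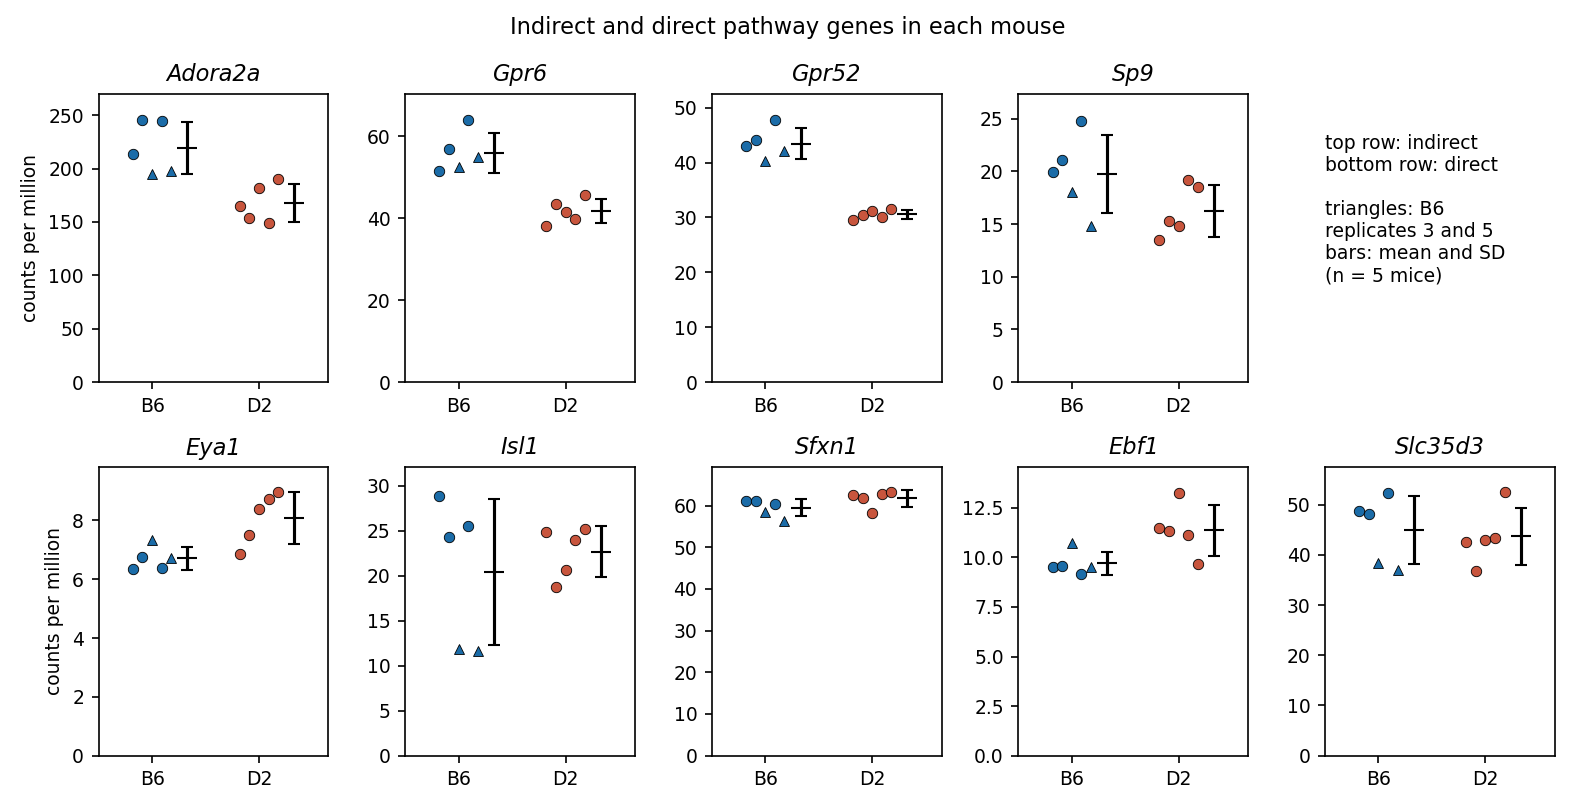
CPM values (linear axes from 0) of the 4 indirect pathway genes (top row) and 5 direct pathway genes (bottom row) in each of 5 B6 and 5 D2 mice, with the mean and SD beside the points and triangles for B6 replicates 3 and 5. All 5 D2 mice lie below all 5 B6 mice for Adora2a, Gpr6 and Gpr52, while the strains overlap for the other 6 genes and the triangles are lowest for Isl1.

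Among the receptors of the indirect pathway, Adora2a (ENSMUSG00000020178, chr10:75152560-75170628, forward strand) encodes the adenosine receptor of these neurons, which raises cAMP and opposes the dopamine D2 receptor. Its CPM were 214, 245, 195, 245 and 198 in B6 replicates 1 to 5, and 165, 153, 182, 149 and 190 in D2 replicates 1 to 5. The highest D2 mouse was just below the lowest B6 mouse, which was one of the pair that stood apart. Expressed as log2 of D2 over B6, the fold change was −0.39 (standard error 0.084, edgeR with Benjamini-Hochberg adjusted p = 0.0056), from 219 ± 24.5 to 168 ± 17.8 (SD, n = 5 each). Without B6 replicates 3 and 5 it was −0.48 (adjusted p = 6.8e-04 in the same test).

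Gpr6 (ENSMUSG00000046922, chr10:40945973-40948304, reverse strand) encodes an orphan receptor that signals without a known ligand and raises cAMP in indirect pathway neurons. It was measured at 51.6, 56.95, 52.5, 63.9 and 54.9 CPM in the B6 mice and at 38.1, 43.5, 41.4, 39.7 and 45.6 in the D2 mice. The groups did not overlap, and B6 replicates 3 and 5 lay inside the range of the other B6 mice. Its log2 fold change was −0.42 (standard error 0.063, edgeR with Benjamini-Hochberg adjusted p = 3.6e-04).

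Gpr52 (ENSMUSG00000118401, chr1:160402289-160407590, reverse strand) encodes another orphan receptor that raises cAMP. B6 mice had 43.0, 44.1, 40.3, 47.8 and 42.0 CPM, and D2 mice had 29.5, 30.4, 31.3, 30.1 and 31.6. The D2 mice were nearly alike, and the gap to the lowest B6 mouse was wider than the whole D2 range. The log2 fold change of −0.51 (standard error 0.045, edgeR with Benjamini-Hochberg adjusted p = 3.9e-06) had the smallest adjusted p of the 9 genes.

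Gpr52 lies within Rabgap1l, a gene on the same strand that encodes a Rab GTPase-activating protein, with 0 bp of shared exon. Rabgap1l changed in the opposite direction, from 119 ± 7.75 to 153 ± 8.35 CPM (SD, n = 5 each), with a log2 fold change of 0.36 (standard error 0.051, edgeR with Benjamini-Hochberg adjusted p = 2.3e-04). Gm37212, an unnamed gene model 909 bp from Gpr52, was lower in D2 with a log2 fold change of −0.83 (standard error 0.11, adjusted p = 1.8e-04 in the same test).

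Sp9 (ENSMUSG00000068859, chr2:73102269-73115050, forward strand) encodes a zinc finger transcription factor that is needed for indirect pathway neurons to form. Its CPM were 19.9, 21.1, 18.0, 24.8 and 14.8 in B6 and 13.5, 15.3, 14.9, 19.1 and 18.5 in D2. The groups overlapped, and the lowest B6 mice were replicates 3 and 5. The log2 fold change was −0.28 (standard error 0.13, 95% interval −0.53 to −0.02), and it did not pass (edgeR with Benjamini-Hochberg adjusted p = 0.176). This interval is a normal approximation that leaves out 0, although the same edgeR test gave an unadjusted p of 0.053. Without B6 replicates 3 and 5 every D2 mouse was below the B6 mice that remained, and the log2 fold change was −0.43 (adjusted p = 0.014 in the same test). Exons of Sp9 and of Cir1, on the opposite strand, share 270 bp, or 5.35% of the exon bases of Sp9, and reads there cannot be told apart if the counting took no account of strand.

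The sequences just upstream of the start sites were read for the indirect genes that RefSeq's promoter table (GRCm38.p6) listed, since the estimates of all 4 were below 0, and were placed on GRCm39 by exact match. The table held 6 of the 9 genes, and Adora2a, Gpr52 and Eya1 were not among them. The 100 bases before the start of Gpr6 (chr10:40948287-40948386, reverse strand) and of Sp9 (chr2:73102170-73102269, forward strand) read as follows, 5′ to 3′, with the motifs found in capitals.
Gpr6: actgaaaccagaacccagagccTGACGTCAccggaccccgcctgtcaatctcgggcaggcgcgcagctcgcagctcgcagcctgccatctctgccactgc
Sp9: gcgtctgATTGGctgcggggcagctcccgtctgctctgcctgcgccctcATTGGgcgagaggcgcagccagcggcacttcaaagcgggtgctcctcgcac
The letters searched, on both strands and over 250 bases before the start, were TGACGTCA, the cAMP response element, and its shorter form TGACG, which the full element also holds. The same windows were searched for the GC box, spelled GGGCGG, and for the CCAAT box. The capitals in Gpr6 mark a full cAMP response element that begins 78 bases before the start, a motif held by 1.56% of 32536 mouse promoter windows. The capitals in Sp9 mark 2 CCAAT boxes read on the other strand, and 33.8% of windows held at least 1. A match describes letters only, and binding was not measured.

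Among the transcription factors and cofactors of the direct pathway, Eya1 (ENSMUSG00000025932, chr1:14239167-14380543, reverse strand) encodes a transcriptional coactivator with phosphatase activity. The B6 mice had 6.35, 6.75, 7.34, 6.40 and 6.73 CPM, and the D2 mice had 6.87, 7.50, 8.39, 8.71 and 8.95. Of the D2 mice, 4 lay above every B6 mouse and the other one within the B6 range. On the log2 scale the fold change was 0.27 (standard error 0.079, edgeR with Benjamini-Hochberg adjusted p = 0.032). The call was near the threshold and not stable. It passed in 3 of 10 fits that each left out 1 mouse, with log2 fold changes between 0.23 and 0.32 over the 10. The call was lost without B6 replicate 1, 2, 4 or 5 or D2 replicate 3, 4 or 5 (adjusted p of 0.057 to 0.085 in the same test). It passed without B6 replicates 3 and 5 together (0.31, adjusted p = 0.027).

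Ebf1 (ENSMUSG00000057098, chr11:44508138-44898918, forward strand) encodes a helix-loop-helix transcription factor that acts in the maturation of direct pathway neurons and is also present in cells of vessel walls. Its CPM were 9.53, 9.55, 10.7, 9.17 and 9.52 in B6 and 11.5, 11.3, 13.3, 11.1 and 9.64 in D2. Again 4 D2 mice lay above every B6 mouse, and D2 replicate 5 lay among the B6 mice. The log2 fold change of 0.23 (standard error 0.078) did not pass (edgeR with Benjamini-Hochberg adjusted p = 0.060). It passed without B6 replicate 3 (adjusted p = 0.042), without D2 replicate 5 (adjusted p = 0.016), and without B6 replicates 3 and 5 together (0.27, adjusted p = 0.045). Among 9 vascular genes, the mural cell gene Rgs5 was higher in D2 (0.25), Pdgfrb and Vtn, also of mural cells, were lower (−0.24 and −0.25), and 6 did not pass. The summed level of these genes was 277.5 to 323 CPM in B6 and 258 to 322 in D2, and the part of vascular cells in the Ebf1 value was not tested.

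Isl1 (ENSMUSG00000042258, chr13:116434817-116446235, reverse strand) encodes a LIM homeodomain transcription factor that guides direct pathway neurons and is also made by cholinergic interneurons. It was measured at 28.8, 24.3, 11.9, 25.5 and 11.6 CPM in B6 and at 24.8, 18.7, 20.6, 23.9 and 25.1 in D2. B6 replicates 3 and 5 lay far below the other 8 mice, and the groups overlapped. With all mice the log2 fold change was 0.15 (standard error 0.23, 95% interval −0.31 to 0.60, edgeR with Benjamini-Hochberg adjusted p = 0.75). Without these libraries the direction turned, with a log2 fold change of −0.21 (adjusted p = 0.15 in the same test), and without either one alone it was near 0. With the level of the cortical markers as a covariate, Isl1 was called higher in D2 (0.43, adjusted p = 0.0011). In that fit 7817 of 29883 genes were called, against 5478 in the main fit without the covariate.

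Chat, the enzyme that makes acetylcholine and the defining marker of cholinergic interneurons, followed the same mice. Its CPM were 22.5, 24.1, 11.6, 21.4 and 11.5 in B6 and 27.2, 17.5, 20.6, 20.1 and 23.7 in D2, so that it too was lowest in B6 replicates 3 and 5. Isl1 relative to Chat gave ratios of 1.10 ± 0.126 for B6 and 1.05 ± 0.101 for D2 (SD, n = 5 each), which overlapped between the strains. Of the 7 cholinergic genes, 0 passed in edgeR and in DESeq2, and 0 had an unadjusted p under 0.05, with a median log2 fold change of 0.34, or −0.04 without B6 replicates 3 and 5. In the fit with the cortical covariate, in which Isl1 was called, all 7 were called higher in D2 (median 0.57). The shares of Isl1 RNA from direct pathway neurons and from cholinergic interneurons were not tested.

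**Figure D2:**
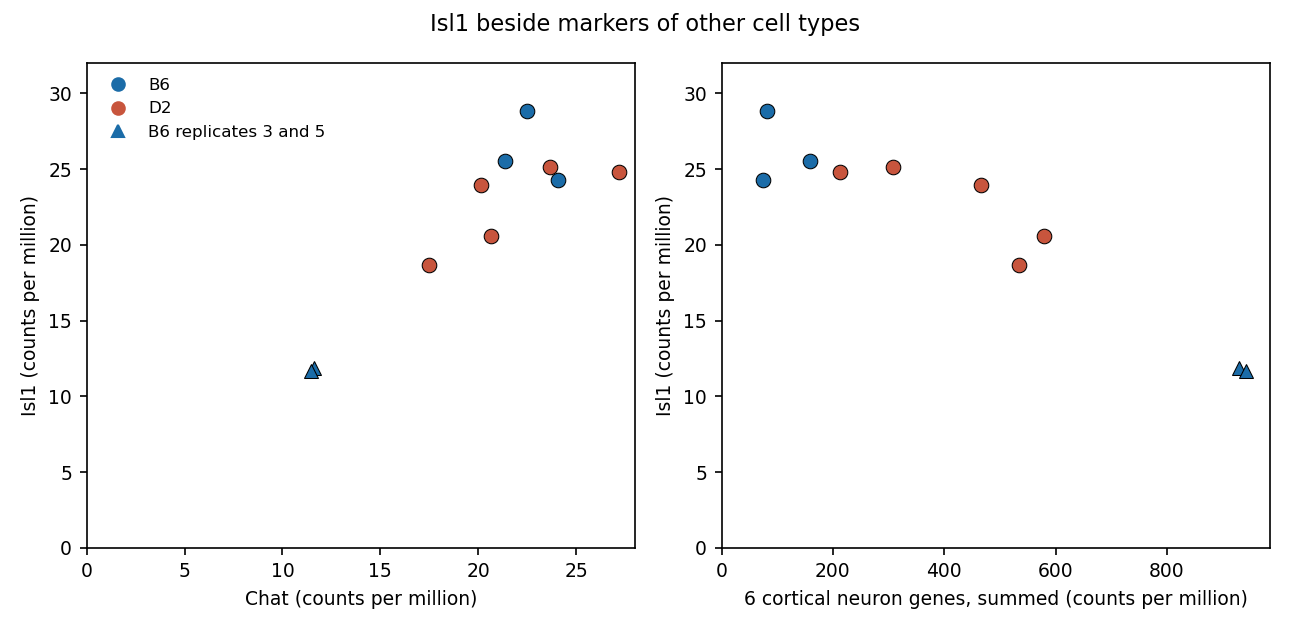
Isl1 in CPM (vertical axes from 0) against Chat (left) and against the sum of 6 cortical projection neuron genes (right), with 1 point per mouse and triangles for B6 replicates 3 and 5. The triangles have the lowest Isl1 (11.9 and 11.6) and Chat (11.6 and 11.5) and the highest cortical sum (929 and 941). The other B6 points overlap with the D2 points in Isl1 and Chat. Their cortical sums (74.2 to 159) lie below those of all D2 mice (213 to 579).

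The 100 bases before the RefSeq start of Isl1 (chr13:116446225-116446324, reverse strand, GRCm39) are shown beside those of the indirect genes because they hold the same kinds of motif.
Isl1: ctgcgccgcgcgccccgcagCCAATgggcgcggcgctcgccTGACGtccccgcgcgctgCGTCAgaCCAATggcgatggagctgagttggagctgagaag
The capitals mark 2 partial cAMP response elements (TGACG), one on each strand, and 2 CCAAT boxes. At least 1 partial element was held by 17.9% of all windows, and Isl1 held no full element and no GC box, a motif that 32.97% of windows held. Over the same 250 bases, Slc35d3 held 1 partial element, 1 CCAAT box and 1 GC box, and Sfxn1 held 1 GC box. Neither Ebf1 window held any of these motifs. Of the indirect genes, Gpr6 also held 1 CCAAT box and Sp9 also held 1 GC box.

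Neither transporter gene of the direct set passed the test. Sfxn1 (ENSMUSG00000021474, chr13:54225709-54262375, forward strand) encodes a sideroflexin that carries serine into mitochondria, and it lies 15949 bp from Drd1, the gene of the dopamine D1 receptor. B6 mice had 61.2, 61.1, 58.6, 60.3 and 56.3 CPM, and D2 mice had 62.6, 61.9, 58.3, 62.7 and 63.4. All 10 mice lay between 56.3 and 63.4 CPM, and the log2 fold change was 0.05 (standard error 0.035, 95% interval −0.02 to 0.12, edgeR with Benjamini-Hochberg adjusted p = 0.35). Exons of Sfxn1 and of Gm61472, on the opposite strand, share 958 bp, or 4.93% of the exon bases of Sfxn1. The limit given for Sp9 and Cir1 therefore holds here as well.

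Slc35d3 (ENSMUSG00000050473, chr10:19723662-19727357, reverse strand) encodes a member of the nucleotide sugar transporter family that is linked to dopamine D1 receptor trafficking. Its CPM were 48.7, 48.2, 38.5, 52.3 and 37.0 in B6 and 42.7, 36.8, 43.1, 43.4 and 52.5 in D2. The strains covered almost the same range, and B6 replicates 3 and 5 were low in it. The log2 fold change was −0.04 (standard error 0.11, 95% interval −0.25 to 0.17, edgeR with Benjamini-Hochberg adjusted p = 0.85), and without those libraries it was −0.19 (adjusted p = 0.16 in the same test).

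Levels of different genes were compared per kilobase of exon. In B6 the order, in CPM per kilobase, was Adora2a (41.7), Gpr6 (30.9), Slc35d3 (13.1), Gpr52 (10.6), Isl1 (5.15), Sp9 (3.91), Sfxn1 (3.06), Ebf1 (0.99) and Eya1 (0.80). The ranges of the B6 mice overlapped between Slc35d3 and Gpr52, between Isl1 and Sp9, and between Sp9 and Sfxn1. In D2 the order was the same, with Adora2a at 31.9, Gpr6 at 23.0, Slc35d3 at 12.8 and Gpr52 at 7.43, and Slc35d3 and Gpr52 no longer overlapped. The ranges of the D2 mice overlapped between Sp9 (3.22) and Sfxn1 (3.18) and between Ebf1 (1.16) and Eya1 (0.96), so that these neighbours were not told apart. The level of Sfxn1 is understated on this scale, since its annotated exons sum to 19424 bp over all transcripts.

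The sets were then compared within each mouse, as the mean log2 CPM of the 4 indirect genes minus that of the 5 direct genes. This difference was 1.33, 1.48, 1.50, 1.5997 and 1.56 in B6 replicates 1 to 5 and 0.85, 1.03, 0.94, 0.91 and 1.01 in D2 replicates 1 to 5. Every D2 mouse was below every B6 mouse, and B6 replicates 3 and 5 lay with the rest of their strain. The means were 1.49 ± 0.103 and 0.95 ± 0.076 (SD, n = 5 each), so that the sets lay 0.55 closer on the log2 scale in D2. This is a description of chosen genes and carries no test. It moved between −0.59 and −0.52 with each mouse left out.

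Taken separately, the indirect mean came to 5.82 ± 0.15 for B6 and 5.43 ± 0.093 for D2 and did not overlap, while the direct mean was 4.33 ± 0.159 and 4.48 ± 0.075 and overlapped (log2 CPM, SD, n = 5 each). B6 replicates 3 and 5 were lowest among the B6 mice in both means. The difference of the means therefore stayed in the B6 range in these libraries although each mean was low.

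**Figure D3:**
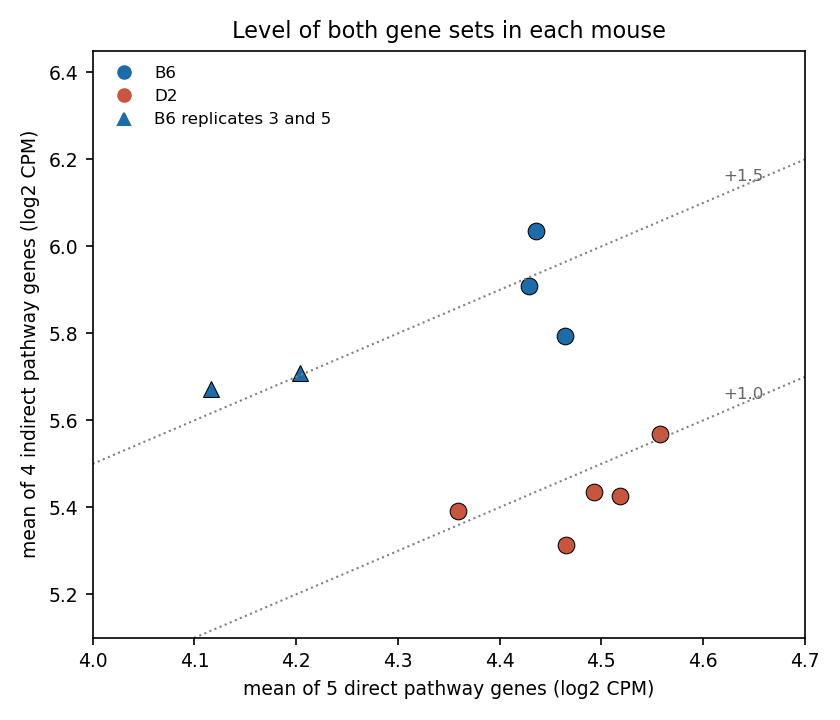
Mean log2 CPM of the 4 indirect pathway genes (vertical) against that of the 5 direct pathway genes (horizontal), with 1 point per mouse and dotted lines where the indirect mean exceeds the direct mean by 1.0 or 1.5. The B6 mice lie between 1.33 and 1.5997 and the D2 mice between 0.85 and 1.03 by this difference, and B6 replicates 3 and 5 (triangles) lie to the left of the other mice at a B6 difference.

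Ratios of single genes, in which the scaling of a library cancels, were formed for the 20 pairs of an indirect and a direct gene. All 20 were lower on average in D2, by between −0.77 (Gpr52 to Eya1) and −0.23 (Sp9 to Slc35d3) on the log2 scale. In 10 of the 20 pairs every D2 mouse was below every B6 mouse, where 11.7% of ordered pairs showed the same among 15381 genes whose mean reached 100 counts. The pairs share genes and are not independent. These 10 held Gpr52 in 4 pairs, Adora2a and Gpr6 in 3 each and Sp9 in 0, and Isl1 was in none of them. The ratio of Gpr52 to Sfxn1 was 0.688 to 0.792 in B6 and 0.471 to 0.536 in D2.

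The classic markers of both pathways can be set beside these genes. The ratio of Drd2 to Drd1, the dopamine D2 and D1 receptors, was 0.621 to 0.748 in B6 and 0.494 to 0.533 in D2. B6 replicates 3 and 5 had the highest values (0.745 and 0.748), and the other B6 mice had 0.621 to 0.638. The ratio of Penk to Tac1, the precursors of enkephalin and substance P, was 5.38 to 5.97 in B6 and 3.38 to 4.39 in D2. Neither ratio overlapped between the strains, while the ratio of Adora2a to Drd2, both of the indirect pathway, was 1.38 to 1.69 in B6 and 1.50 to 1.71 in D2 and did.

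Of 7 other indirect pathway genes, 3 were lower in D2 and 0 higher, with a median log2 fold change of −0.10. These were Drd2 (log2 fold change −0.46, standard error 0.045), Penk (−0.52, standard error 0.12) and Upb1, an enzyme of pyrimidine breakdown (−0.58, standard error 0.18), with edgeR Benjamini-Hochberg adjusted p of 8.6e-06, 0.0074 and 0.044. The Upb1 call was lost with total counts (adjusted p = 0.060) and without B6 replicate 1 or 4 or D2 replicate 1, 2 or 3, with adjusted p of 0.093, 0.10, 0.088, 0.096 and 0.096 and estimates of −0.43, −0.51, −0.56, −0.55 and −0.50 in that order. All 3 were also called without B6 replicates 3 and 5 (Drd2 −0.48, Penk −0.70 and Upb1 −0.77). Upb1 lies 66321 bp from Adora2a. The other 4 did not pass, with log2 fold changes of 0.01 for Gucy1a1 (a guanylyl cyclase subunit), −0.04 for Ptprm (a receptor phosphatase), −0.10 for Plxdc1 and 0.06 for Grik3 (a kainate receptor subunit). Leaving out B6 replicates 3 and 5 put Gucy1a1 at −0.25 (adjusted p = 0.081), Plxdc1 at 0.24, with the sign turned (adjusted p = 0.097), and the median of the list at −0.25. With the cortical covariate, Gucy1a1 was called higher (0.18, adjusted p = 0.026) and Plxdc1 lower (−0.19, adjusted p = 0.0048, edgeR with Benjamini-Hochberg adjustment). With all mice, the median of this list was nearer to that of all genes than the median of Adora2a, Gpr6, Gpr52 and Sp9 was.

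Of 6 other direct pathway genes, 1 was lower in D2 and 0 were higher, with a median log2 fold change of −0.04. The called gene was Plxnd1, a semaphorin receptor (−0.56, standard error 0.15, edgeR with Benjamini-Hochberg adjusted p = 0.021), and its highest B6 mice were replicates 3 and 5 (159 and 156 CPM). The call was lost without these libraries (−0.36, adjusted p = 0.097) and without D2 replicate 1, 4 or 5 (−0.49, −0.51 and −0.52, adjusted p = 0.053, 0.056 and 0.055). Drd1 (−0.06), Tac1 (−0.02), Pdyn (0.01), the precursor of dynorphin, and Chrm4 (−0.11), a muscarinic receptor, did not pass. Zfp521, a transcription factor, had a log2 fold change of 0.20 and did not pass (adjusted p = 0.064 in the same test). When B6 replicates 3 and 5 were left out, Pdyn (−0.17, adjusted p = 0.027) and Chrm4 (−0.25, adjusted p = 0.031) were called lower in D2, and the median of the list was −0.17.

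**Figure D4:**
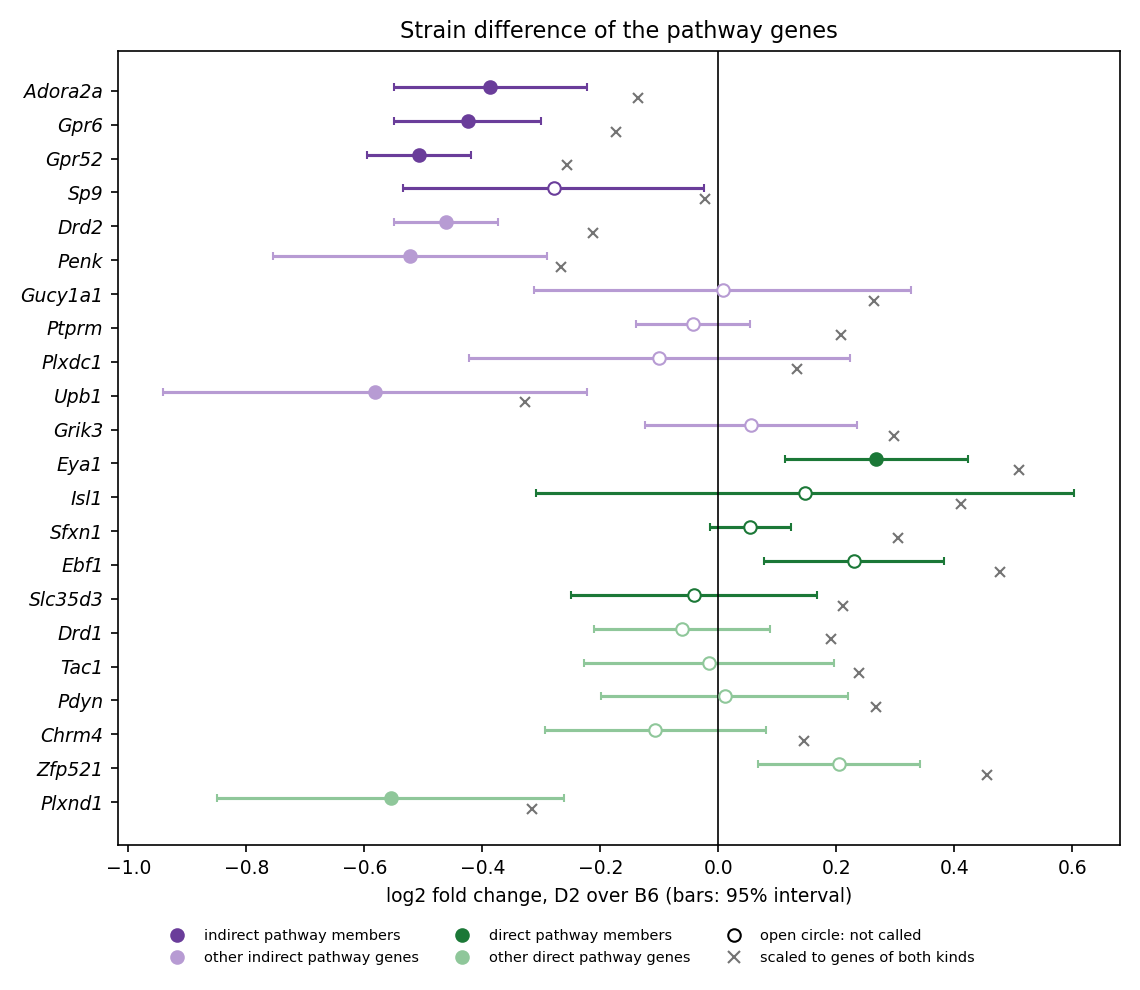
Log2 fold change of D2 over B6 (horizontal, 0 marked by a line) for the 9 members and 13 other pathway genes. Bars are approximate 95% intervals from the standard errors of edgeR. Circles are filled where the gene passed and open where it did not. Crosses give the value relative to 14 genes of both kinds of projection neuron. Adora2a, Gpr6, Gpr52, Drd2, Penk, Upb1 and Plxnd1 are filled on the left and Eya1 on the right, and every cross lies to the right of its circle.

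Genes made by both kinds of projection neuron were lower in D2 as well. Of 14 such genes, 9 passed and were lower and 0 were higher, with a median log2 fold change of −0.24, among them the phosphodiesterase genes Pde10a (−0.35) and Pde1b (−0.24), the adenylyl cyclase gene Adcy5 (−0.30) and Rgs9 (−0.25). The transcription factor genes Meis2 (−0.53), Bcl11b (−0.26) and Foxp1 (−0.16) and the phosphatase gene Ptpn5 (−0.23) were lower as well. The medians of both lists of direct pathway genes (0.15 and −0.04) were above this value, and so was that of the other indirect pathway genes (−0.10). The median of the 4 indirect members (−0.41) was below it.

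Scaling the libraries to these 14 genes moved the median of all genes to 0.25 and the calls to 36.2% higher and 4.52% lower. On that scale Gpr6 (−0.17, adjusted p = 0.018) and Gpr52 (−0.26, adjusted p = 0.0010) stayed lower in D2, and Adora2a (−0.14, adjusted p = 0.11) and Sp9 (−0.02, adjusted p = 0.89) did not pass. Eya1 (0.51), Ebf1 (0.48), Sfxn1 (0.30) and Slc35d3 (0.21) were called higher and Isl1 (0.41) was not, with adjusted p between 6.2e-04 and 0.12 (edgeR with Benjamini-Hochberg adjustment). Set against the median of 0.25, Slc35d3 was below and the other direct genes above it. The medians of the sets were −0.16 (indirect) and 0.41 (direct), below and above that of all genes. A change of scaling moves every gene by nearly the same amount. The same order as under the main scaling was therefore fixed in advance and is no separate check.

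Without B6 replicates 3 and 5, 19.2% of genes passed, all 4 indirect genes were lower in D2 (median −0.47), and Eya1 and Ebf1 were higher among the direct genes (median 0.02). Among 14 genes of both kinds, 12 were then lower. The 6 cortical genes, of which 0 passed with all mice in edgeR or DESeq2 and 0 had an unadjusted p under 0.05 (median −0.05), were all higher in D2 in this comparison (median 1.94), since the remaining B6 mice had the lowest cortical levels of all.

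Markers of other cells in the dissection were read from the same test. Oligodendrocyte genes were lower in D2 for 4 of 6 (Mog, Mag, Cnp and Mobp, median −0.35), and without B6 replicates 3 and 5 their median was −0.25 and 0 passed in edgeR (3 at an unadjusted p under 0.05). With the cortical covariate, under which 7817 of all genes were called, all 6 were called lower (median −0.38). Their summed level was 4293 to 6202 CPM in B6 and 3242 to 4734 in D2. Of 6 astrocyte genes, Aqp4 and Aldh1l1 were lower and Gja1 was higher, or 1 was lower and 1 higher without these libraries. Of 6 microglial genes, C1qa was lower and P2ry12 higher, 0 of 7 GABAergic interneuron genes passed in edgeR (1 at an unadjusted p under 0.05 and 1 in DESeq2), and Trpc4, of the septum, was the 1 of 5 genes of neighbouring regions that was higher (0.36). With these libraries left out, 0 of these 5 were called (1 at an unadjusted p under 0.05) and 2 GABAergic interneuron genes were called higher. Of 4 choroid plexus and ependyma genes, Folr1 was lower, from a B6 mean of only 0.0507 CPM. The part of these cells in the differences of the 9 genes was not tested.

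Of 12 transcription factors of the lineage that yields both neuron classes, 1 passed with all mice, namely Zswim6 (−0.27, edgeR with Benjamini-Hochberg adjusted p = 3.5e-04), a gene with a role in striatal development. Without B6 replicates 3 and 5, 6 of the 12 were called lower in D2 and 0 higher, and the median of the list was −0.19. Six3, which acts with Sp9 in indirect pathway neurons, did not pass with all mice (−0.11), nor did Ikzf1 (−0.08), and the median of the list was then −0.08.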

How the data were processed

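NAc poly-A RNA of 5 B6 and 5 D2 mice was sequenced, 1 library per mouse, and the labels name each mouse. The authors trimmed reads with fastp, aligned them with STAR 2.7.10b to GRCm39, handled the alignments with SAMtools 1.6 and counted reads per gene with featureCounts, with the strand setting not given in the sources used here. The deposited table holds raw counts, from which genes with a median of 0 had been removed (lowest median 0.5). The authors' mean, median and low-count columns were not used. Of 29883 identifiers, 29519 were in the annotation used for names and positions.

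Counts were fitted with edgeR 4.0.16 in R 4.3.3 (TMM, quasi-likelihood F test, two-sided, Benjamini-Hochberg adjustment over all genes, threshold 0.05), with the strain as the only factor. CPM values are TMM-normalized, and their log2 values use a prior count of 2. Standard errors were derived from the F statistic. DESeq2 1.42.0, other scalings, filters (all 9 genes passed both, of 21513 and 19119 genes kept), a cortical marker covariate, a replicate block and each mouse left out were the alternatives. Figures and promoter searches used Python 3.11.15. In simulated counts for D2 against B6 over 29883 genes, edgeR found 79 of 100 genes changed by 0.5 and 95 of 100 changed by 1 on the log2 scale, with 8 false calls, and DESeq2 found 92 and 97 with 66.

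The members and the 15 gene lists (104 genes, from general knowledge) were chosen with earlier results of these data known, so no test was run over a list. Named genes were all members, all genes of the other pathway lists, called genes of the remaining lists, known cell type partners of a member, and the 3 genes nearest to each set's profile. A single gene that the rule selects is not reported here. The intervals cover the spread between mice.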

Additional observations from a re-analysis of the deposited data

Results flagged for a closer look

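Ebf1 in B6 was the single case in which 1 mouse stood far from the others of its strain, among the 9 genes and the difference of the set means in both strains (20 groups tested, of which chance marks about 1 in 20). B6 replicate 3 had 10.7 CPM against 9.17 to 9.55 in the other B6 mice, and its gap to the nearest mouse took 0.755 of the whole range, above the critical value of 0.71 for 5 samples. Without this mouse the log2 fold change of Ebf1 was 0.26 (edgeR with Benjamini-Hochberg adjusted p = 0.042).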

How the results depend on the processing

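Calls for Gpr6 and Gpr52 held under all 21 alternatives, and those for Adora2a under 20. Scaling to the genes of both kinds of projection neuron gave 12183 called genes and 1 called gene among those 14, took away the call of Adora2a (−0.14), turned Slc35d3 to 0.21, called Sfxn1 (0.30) and Ebf1 (0.48), and gave 4 calls among the direct genes and 4 among the other direct genes, all higher. The cortical covariate called 7817 genes, against 5478 in the main fit. It gave 3 direct calls, with Isl1 at 0.43, Ebf1 at 0.21 and Slc35d3 turned to 0.035. DESeq2 called 6208 genes, with 2 direct calls (Ebf1 0.23) and 2 among the other direct genes, 1 lower and 1 higher. Total counts called 5480 genes, with 2 direct calls (Ebf1 0.26). Leaving out B6 replicates 3 and 5 together, an alternative chosen after seeing the data, gave 2 direct calls, both higher in D2, and 2 among the other direct genes, both lower, with Sp9 at −0.43, Ebf1 at 0.27 and Isl1 turned to −0.21. The median of the members in place of their mean moved the set difference to −0.71. With each mouse left out, direct calls numbered 0 to 2, Sp9 lay between −0.37 and −0.18, Eya1 between 0.23 and 0.32, Isl1 between −0.01 and 0.30, Ebf1 between 0.16 and 0.28 and Slc35d3 between −0.12 and 0.019. Isl1 turned without B6 replicate 3 (−0.0016) or 5 (−0.0070), and Slc35d3 without B6 replicate 4 (0.019) or D2 replicate 2 (0.014). The cause was not tested.

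The replicate numbers did not pair the mice, with correlations of same-numbered mice between −0.42 and 0.37 and 2 of 5 numbers best matched to their own. With the replicate number as a block, 2 direct genes were called, Ebf1 among them at 0.22. Every member had at least 646 counts in each mouse, and the 95% interval of Isl1 (−0.31 to 0.60) holds changes in either direction.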

Other observations

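Among the genes whose profile over the 10 mice lay nearest to the mean of the 4 indirect genes, out of 12182 genes whose mean reached 500 counts, were Frg2f1 and Aldh4a1, at root mean square distances of 0.0599 and 0.0613 on the log2 scale, against a median of 0.245 over all genes compared. Their log2 fold changes were −0.35 and −0.39. Aldh4a1 encodes a mitochondrial enzyme of proline breakdown. The members themselves lay between 0.0662 (Gpr6) and 0.15 (Sp9) from the profile that they define.

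Nearest to the mean of the 5 direct genes were Gm44950, Panx1 and Map3k5, at 0.0440, 0.0441 and 0.0446 against a median of 0.160. Their log2 fold changes were 0.18, 0.09 and 0.17, and none passed. Panx1 encodes a channel that releases ATP and Map3k5 a stress-activated kinase, which lies 81969 bp from Slc35d3. Of the members themselves, Eya1 (0.17), Ebf1 (0.19) and Isl1 (0.32) lay farther from this profile than the median gene did.

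Within 250 kb of the 9 genes lay 54 other genes of the table, of which 9 were lower and 1 was higher in D2. Together these were 18.5%, against 18.3% of all genes. By direction the calls were less even than over all genes, of which 9.83% were lower and 8.5% higher. Around Adora2a, 4 of 10 were lower, namely Bcr (−0.19), Upb1 (−0.58), Snrpd3 (−0.27) and Ggt1 (−0.55), while Specc1l, 3982 bp away, had a log2 fold change of 0.01 and did not pass. Beside Ebf1, Ublcp1, 146128 bp away, was lower (−0.48), the direction opposite to that of the Ebf1 estimate.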
